A study of Mus musculus with 12 samples.

Results

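The genes described are 10 of the 16516 genes listed for mouse bone marrow-derived macrophages: the PARP genes Parp1, Parp2, Parp3, Parp8, Parp9, Parp10, Parp11, Parp12 and Parp14, and Dtx3l, the partner gene of Parp9. They were chosen by gene symbol, and all 10 were listed and tested in every comparison. Parp9, Dtx3l, Parp14, Parp10, Parp11 and Parp12 are set as interferon-inducible members against Parp1, Parp2 and Parp3, which act at DNA breaks, with Parp8 on its own. Macrophages grown from the marrow of MGMT knockout (KO) or wild-type (WT, WTfl/fl) mice were exposed for 24 h to DMXAA, an agonist of mouse STING, or to the vehicle DMSO. The 4 groups, with 3 libraries each, are KO under DMXAA, KO under DMSO, WT under DMXAA and WT under DMSO. The labels name no Cre driver, deleted exon or mouse age, and they leave unsaid whether the 3 libraries of a group are from different mice. The p-values below therefore cover the spread among the libraries, which may be technical. MGMT is a DNA repair protein that takes alkyl groups off guanine.

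PARP enzymes split NAD+ and transfer its ADP-ribose part to proteins or nucleic acids. PARP1 and PARP2 build chains of poly(ADP-ribose) when they bind DNA breaks, PARP3 adds single units at breaks, and most of the other members also add single units. A second set of these genes belongs to the type I interferon programme that follows STING, TBK1 and IRF3 activation. Interferon signals through its receptor to the transcription factor complex ISGF3, which includes IRF9, and ISGF3 binds the interferon-stimulated response element (ISRE). DTX3L is a ubiquitin ligase of the Deltex family rather than a PARP, and it forms a stable complex with PARP9.

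The bases before the annotated start are shown for Parp11, the member with the largest change under DMXAA, for Parp3, the DNA-damage member that rose, and for Parp1, the member that fell. Each run is the 250 bases before a RefSeq start, 5′ to 3′ in the direction of the gene, build GRCm38.p6, and no annotated exon lies in any of the 3. Capitals mark a match to a core motif searched on both strands: the ISRE core GAAANNGAAA and the STAT-binding GAS core TTCNNNGAA.
Parp11, chr6:127446590-127446839, + strand: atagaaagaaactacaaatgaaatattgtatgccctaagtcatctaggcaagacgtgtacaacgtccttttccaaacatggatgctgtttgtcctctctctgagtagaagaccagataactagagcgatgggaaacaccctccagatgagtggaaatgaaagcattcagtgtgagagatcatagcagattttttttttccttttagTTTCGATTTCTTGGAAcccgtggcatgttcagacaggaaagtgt
Parp3, chr9:106476950-106477199, - strand: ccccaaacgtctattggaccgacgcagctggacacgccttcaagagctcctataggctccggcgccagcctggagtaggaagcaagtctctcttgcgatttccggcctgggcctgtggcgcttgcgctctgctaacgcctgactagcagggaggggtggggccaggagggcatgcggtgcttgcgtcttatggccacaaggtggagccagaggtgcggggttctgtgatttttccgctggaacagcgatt
Parp1, chr1:180568641-180568890, + strand: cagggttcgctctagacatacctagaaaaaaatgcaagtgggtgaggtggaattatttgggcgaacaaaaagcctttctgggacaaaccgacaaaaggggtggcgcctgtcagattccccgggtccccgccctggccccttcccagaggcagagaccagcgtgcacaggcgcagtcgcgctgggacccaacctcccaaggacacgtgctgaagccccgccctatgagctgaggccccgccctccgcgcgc
In Parp11 the ISRE core lies on the opposite strand, 44 to 35 bases before the start, and the GAS core, 37 to 29 bases before it, overlaps it by 3 bases. RefSeq lists a second Parp11 start, whose window held neither core, and the windows of Parp1, Parp2, Parp3, Parp8, Parp12 and Dtx3l held neither core in the 300 bases from 250 before to 50 after the start. Of all 32851 mouse windows of that length, 3.44% held the ISRE core and 8.3% the GAS core. Parp4, a family member outside the 10 that was not called higher under DMXAA in either genotype, held a tandem pair of overlapping ISRE cores starting 150 bases before its start (40 bases shown, + strand).
Parp4, chr14:56575457-56575496, + strand: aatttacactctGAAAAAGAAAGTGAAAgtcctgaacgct
A match is a description of letters, not a measured binding site, and Parp9, Parp10 and Parp14 were not matched to a window.

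Libraries held 79.5 to 98.1 M reads in listed genes. Mgmt itself had 51, 61 and 33 reads in KO libraries under DMXAA, against 107, 85 and 99 reads in WT libraries under DMXAA. Under DMSO it had 121, 141 and 162 reads in KO libraries, against 263, 245 and 243 reads in WT libraries. Mgmt was thus lower in KO, with a log2 difference of -1.11 under DMXAA and -0.83 under DMSO, but its reads were not absent. All 7 macrophage markers were present, Adgre1 at 2785 to 3160 reads per M under DMXAA and 4364 to 4679 under DMSO. Only 2 of the 3 T cell markers were listed, Cd3e and Cd3g, and neither was listed for the WT libraries under DMXAA. In the other libraries their sum was at most 0.101 reads per M. Sums of other cell types that differed between groups are given beside the results.

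DMXAA raised all 6 interferon-inducible members in both genotypes. The gene with the largest change was Parp11, which was 9-fold higher in KO and 8.49-fold higher in WT, and the smallest change of the 6, that of Parp14, was 5.6-fold in KO and 5.17-fold in WT. Of the DNA-damage members, Parp3 rose, Parp1 fell, and the direction of Parp2 depended on how libraries were scaled. Over the 10 members, 9 were called higher and 1 lower in each genotype. On the deposited scale no member's DMXAA and DMSO libraries overlapped within a genotype, but the share of all genes without overlap was not counted. In KO 33.7% of the 12704 genes tested were called higher and 32.9% lower, and in WT 31.7% of 12752 were called higher and 31.1% lower. The median log2 change of the 6 inducible members was 2.59 in KO and 2.53 in WT, beside a median over all genes tested of -0.00 in each genotype. In bulk RNA, a change in the share of a cell type and a change in RNA per cell cannot be told apart.

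**Figure D1:**
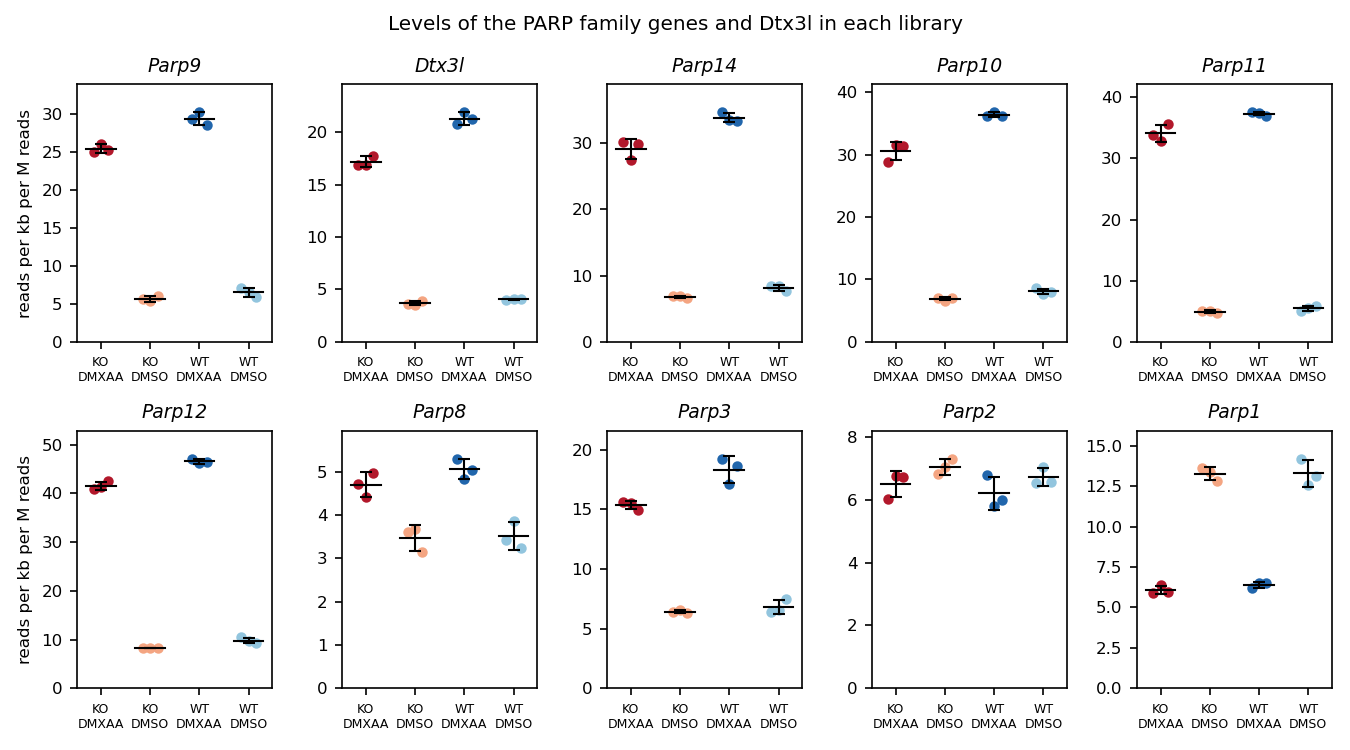
Reads per kb of exon per M reads (y axes, each from 0) in every library of the 4 groups, 1 panel per gene; points are libraries and bars the mean ± SD (n = 3). In the panels of Parp9, Dtx3l, Parp14, Parp10, Parp11, Parp12 and Parp3 both DMXAA groups lie above both DMSO groups, and in the Parp1 panel both lie below.

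Parp9 encodes a PARP with macrodomains that works with DTX3L in interferon signalling and DNA damage responses. Its normalized counts in KO were 12516, 13273 and 12829.8 under DMXAA, against 2174, 2029 and 2361 under DMSO. In WT they were 13875, 14493 and 13629 under DMXAA, against 2742, 2489 and 2242 under DMSO. Every DMXAA library thus lay far above every DMSO library of its own genotype. The log2 change was 2.56 ± 0.06 in KO (SE, n = 3 per group, adjusted p = 1.01e-10) and 2.49 ± 0.07 in WT (adjusted p = 1.04e-09), here and below from limma.

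Dtx3l had 9994, 10122 and 10631 normalized counts under DMXAA in KO, against 1659.5, 1572 and 1789.6 under DMSO. In WT it had 11523, 12367 and 11949.7 under DMXAA, against 1809.7, 1826 and 1843 under DMSO. The groups did not overlap, and the replicates of each group lay close together. Its log2 change was 2.62 ± 0.06 in KO (adjusted p = 6.85e-11) and 2.71 ± 0.05 in WT (adjusted p = 4.30e-11). Per kb of exon, Dtx3l stood below Parp9 in every library: the ratio of Dtx3l to Parp9 was 0.679, 0.649 and 0.705 in the KO DMXAA libraries and 0.65, 0.659 and 0.645 in the KO DMSO libraries. In WT the ratio was 0.707, 0.726 and 0.746 under DMXAA and 0.562, 0.625 and 0.7 under DMSO. The ratios overlapped between treatments in KO, and in WT they were higher in every DMXAA library than in any DMSO library; the lowest and highest of the 12 were 0.562 and 0.746. The annotated exons of the pair share 458 bases on opposite strands, 9.4% of those of Parp9 and 8% of those of Dtx3l. The library kit keeps strand, but the labels do not say whether the counting used it.

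Parp14 encodes a large macrodomain PARP, first described as a partner of STAT6 in interleukin-4 responses. Its normalized counts were 28905, 26599 and 29072 under DMXAA in KO, against 5131, 5009 and 4959 under DMSO. In WT they were 31284, 30675 and 30532 under DMXAA, against 6182, 6098 and 5616 under DMSO. The groups were far apart, with a log2 change of 2.48 ± 0.05 in KO (adjusted p = 1.64e-11) and 2.37 ± 0.05 in WT (adjusted p = 9.38e-11).

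Parp11 encodes a PARP with a WWE domain found at the nuclear envelope. It had 24489.9, 24119.9 and 26182 normalized counts under DMXAA in KO, against 2827, 2802 and 2673 under DMSO. In WT it had 25619, 25868 and 25568 under DMXAA, against 2809.8, 3050.1 and 3232 under DMSO. It had the largest log2 change of the 10 in each genotype, 3.17 ± 0.05 in KO (adjusted p = 3.52e-12) and 3.09 ± 0.06 in WT (adjusted p = 4.08e-11). This is the gene whose upstream bases, printed above, hold the ISRE and GAS cores.

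Parp12, a zinc-finger PARP with antiviral activity, had 16858, 17205 and 17731 normalized counts under DMXAA in KO, against 2626, 2608 and 2676 under DMSO. In WT there were 18262, 18159 and 18222 under DMXAA, against 3314, 2992 and 2934 under DMSO. The KO libraries under DMSO lay close together, and every DMSO library was below every DMXAA library. The log2 change was 2.71 ± 0.04 in KO (adjusted p = 5.21e-12) and 2.57 ± 0.06 in WT (adjusted p = 1.21e-10).

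Parp10, which encodes a mono-ADP-ribosyltransferase first found as a partner of MYC, had 12732, 14064 and 14043 normalized counts under DMXAA in KO, against 2393, 2214 and 2412 under DMSO. In WT there were 14989, 15508 and 15243 under DMXAA, against 2896, 2546 and 2693 under DMSO. All DMXAA libraries were high and all DMSO libraries low, at a log2 change of 2.54 ± 0.06 in KO (adjusted p = 7.13e-11) and 2.49 ± 0.06 in WT (adjusted p = 1.72e-10). Its exons share 205 bases, 4.8% of their length, with Plec on the same strand, and the labels do not say how reads there were counted.

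Parp8, a less studied family member that belongs to neither set, moved the same way by a smaller step. Its normalized counts were 4323, 4093 and 4619 under DMXAA in KO, against 2543, 2562 and 2246 under DMSO, and 4569, 4229.9 and 4399 under DMXAA in WT, against 2404, 2682 and 2265 under DMSO. The groups did not overlap, and its log2 change was 0.83 ± 0.07 in KO (adjusted p = 2.10e-06) and 0.85 ± 0.07 in WT (adjusted p = 3.23e-06).

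Markers of other cell types moved with these changes. The monocyte marker Ly6c2 had 33.8 to 71.6 reads per M in KO and 54.8 to 60.7 in WT under DMXAA, against 0.92 to 1.77 in KO and 2.26 to 2.77 in WT under DMSO. The monocyte marker Ccr2 had 19.2 to 21.1 in KO and 20.7 to 23.0 in WT under DMXAA, against 8.34 to 9.66 in KO and 8.01 to 12.2 in WT under DMSO. Both were higher in every DMXAA library than in any DMSO library. The 3 dendritic cell markers summed to 3.80 to 4.88 in KO and 3.82 to 4.25 in WT under DMXAA, against 0.0108 to 0.18 in KO and 0.109 to 0.189 in WT under DMSO, nearly all of it Xcr1, while Flt3 and Zbtb46 were at most 0.101 in every library. The 7 macrophage markers summed to 9371 to 9461 in KO and 11447 to 11690 in WT under DMXAA, against 16541 to 17332 in KO and 20373 to 20836 in WT under DMSO. The macrophage markers did not all go one way: Lyz2, Adgre1, Csf1r, Mertk and Itgam were lower in every DMXAA library, while Fcgr1 had 1148 to 1233 reads per M in KO and 1118 to 1169 in WT under DMXAA, against 106 to 112.8 in KO and 132.4 to 159.2 in WT under DMSO. The 5 neutrophil markers summed to 0.734 to 0.808 in KO and 2.52 to 2.89 in WT under DMXAA, against 0.733 to 1.15 in KO and 4.68 to 6.62 in WT under DMSO, so they were lower under DMXAA in WT and overlapped in KO. The 2 B cell markers measured summed to 0.143 to 0.234 in KO and 0.235 to 0.348 in WT under DMXAA, against 0.0113 to 0.065 in KO and 0.0107 to 0.0629 in WT under DMSO. The part of all these markers in the PARP changes was not tested.

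The DNA-damage members did not move as a set. Parp3 rose 3.13-fold in KO and 3.36-fold in WT, and Parp1 fell to 0.599 times its DMSO level in KO and 0.601 times in WT.

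Parp1 encodes the main producer of poly(ADP-ribose) after DNA breaks. It had 3220.4, 3518 and 3288 normalized counts under DMXAA in KO, against 5718, 5550.1 and 5472 under DMSO. In WT there were 3185, 3384 and 3394 under DMXAA, against 5948, 5185 and 5473 under DMSO. Every DMXAA library lay below every DMSO library, and the log2 change was -0.74 ± 0.05 in KO (adjusted p = 5.70e-07) and -0.74 ± 0.06 in WT (adjusted p = 3.92e-06). In WT the 10 proliferation markers also moved down, 9 of 10 called lower, with a sum of 245.7 to 265.9 reads per M under DMXAA and 399 to 462.1 under DMSO. In KO 8 of the 10 were called lower, Mcm5 was not called and Pcna was called higher. Top2a had 3.78 to 3.95 reads per M in KO under DMXAA and 10.7 to 13.4 under DMSO, and Mki67 had 1.52 to 1.93 under DMXAA and 4.91 to 7.11 under DMSO. The KO sum, 257 to 272.3 under DMXAA and 207.4 to 237.1 under DMSO, was mostly Pcna, which alone had 223.6 to 237.8 under DMXAA and 142.1 to 158.5 under DMSO. The part of the proliferation markers in the Parp1 change was not tested.

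Parp3, whose product acts in the repair of double-strand breaks, had 5968, 5992 and 5784 normalized counts under DMXAA in KO, against 1878, 1909.7 and 1875 under DMSO. In WT there were 6910.5, 6234 and 6782 under DMXAA, against 1864, 1898 and 2168 under DMSO. The groups were well apart, at a log2 change of 1.65 ± 0.05 in KO (adjusted p = 5.73e-10) and 1.75 ± 0.07 in WT (adjusted p = 1.50e-08). That is above Parp8 and below each of the 6 inducible members in both genotypes.

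Parp2, the partner of PARP1 in single-strand break repair, had 2256, 2563 and 2549.8 normalized counts under DMXAA in KO, against 1962, 2005 and 2139 under DMSO. In WT there were 2395, 2078 and 2144 under DMXAA, against 1880.5, 1993 and 1878 under DMSO. On the deposited scale the DMXAA libraries lay just above the DMSO libraries. The log2 change was 0.27 ± 0.07 in KO (adjusted p = 5.39e-03) and 0.20 ± 0.07 in WT (adjusted p = 2.98e-02), but with libraries scaled to the same total it was -0.12 in each genotype and not called. That scaling moved the median of all genes by -0.39 in KO and -0.32 in WT, so relative to the median gene Parp2 stayed above it. With libraries scaled to the same upper quartile it was 0.12 in KO and 0.07 in WT and called in neither (adjusted p = 1.40e-01 and 3.86e-01). The Parp2 call in WT was also lost without WT_DMXAA replicate 1, WT_DMSO replicate 1 or WT_DMSO replicate 3, with adjusted p = 1.21e-01, 5.96e-02 and 8.02e-02 from limma.

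Ratios within a library do not depend on the scaling between libraries. Per kb, the ratio of Parp14 to Parp1 was 5.11, 4.3 and 5.03 in KO under DMXAA, against 0.51, 0.513 and 0.515 under DMSO. In WT it was 5.59, 5.16 and 5.12 under DMXAA, against 0.591, 0.669 and 0.584 under DMSO. Parp1 thus stood above Parp14 in all 6 DMSO libraries and below it in all 6 DMXAA libraries. The 6 inducible members together were 6.37 ± 0.23 times the summed level of Parp1, Parp2 and Parp3 per kb in KO under DMXAA (SD, n = 3), against 1.36 ± 0.0312 under DMSO, and 6.62 ± 0.33 in WT under DMXAA, against 1.57 ± 0.0586 under DMSO. Parp2 stood at 1.02, 1.06 and 1.13 of Parp1 in KO under DMXAA, against 0.501, 0.527 and 0.57 under DMSO, and at 1.1, 0.896 and 0.921 in WT under DMXAA, against 0.461, 0.561 and 0.501 under DMSO. Parp1 led Parp2 in every DMSO library, and the levels of both genes were near equal under DMXAA. The summed level of the 3 DNA-damage genes was 27.9 ± 0.6 reads per kb per M in KO under DMXAA, against 26.8 ± 0.3 under DMSO, and 30.9 ± 1.4 in WT under DMXAA, against 26.8 ± 0.55 under DMSO. Unlike the ratios, these sums depend on the scaling. Reads per M scale libraries to the same total, which moved the median of all genes by -0.39 in KO and -0.32 in WT.

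The order of levels per kb changed with treatment. Under DMXAA, Parp12 was highest at 41.5 ± 0.842 reads per kb per M in KO and 46.5 ± 0.504 in WT (SD, n = 3), followed in both genotypes by Parp11, Parp10, Parp14, Parp9, Dtx3l and Parp3. In KO the libraries of Parp10 and Parp14 overlapped, and in WT each of these 7 genes stood clear of the next. Parp1 and Parp2 overlapped below them, Parp1 at 6.07 ± 0.256 in KO and 6.4 ± 0.176 in WT, and Parp8 was lowest at 4.7 ± 0.284 in KO and 5.06 ± 0.234 in WT. Under DMSO, Parp1 was highest at 13.3 ± 0.4 in KO and 13.3 ± 0.83 in WT, and Parp12 was next at 8.3 ± 0.0262 in KO and 9.81 ± 0.599 in WT. Parp8 was again lowest, at 3.47 ± 0.294 in KO and 3.51 ± 0.326 in WT, and Dtx3l was next above it, with libraries that overlapped those of Parp8 in KO. Between them, neighbours overlapped for Parp2, Parp10 and Parp14 in KO, for Parp14 and Parp10 in WT, and for Parp3, Parp2 and Parp9 in WT.

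The 7 other PARP genes split. In both genotypes DMXAA raised Zc3hav1, the zinc-finger antiviral protein, by 1.40 in KO and 1.24 in WT on the log2 scale, and Tiparp, a target of the aryl hydrocarbon receptor, by 1.17 in KO and 1.21 in WT. Tnks, which encodes tankyrase, was higher by 0.42 ± 0.10 in KO (adjusted p = 3.06e-03) and 0.54 ± 0.10 in WT (adjusted p = 1.27e-03), calls that were lost with libraries scaled to the same total (log2 changes of 0.03 in KO and 0.22 in WT). Parp16, which encodes an enzyme of the endoplasmic reticulum, was called lower at -0.70 ± 0.16 in KO (adjusted p = 3.24e-03) and -0.51 ± 0.15 in WT (adjusted p = 1.30e-02), a WT call lost without WT_DMSO replicate 2 (adjusted p = 5.10e-02). Parp4, the vault particle PARP, was called lower in KO at -0.25 ± 0.08 (adjusted p = 2.08e-02) and was not called in WT at -0.05 (95% interval -0.22 to 0.11), where libraries scaled to the same total gave -0.37 and a call (adjusted p = 1.52e-03). Its KO call was lost without KO_DMXAA replicate 2 or 3, or without KO_DMSO replicate 2, at adjusted p = 5.54e-02, 5.44e-02 and 6.64e-02. Parp6 and Tnks2 were called in neither genotype, at 0.17 in KO and 0.19 in WT for Parp6, and -0.16 in KO and -0.06 in WT for Tnks2. Both depended on the scaling. With libraries scaled to the same total, Parp6 was -0.22 and called lower in KO (adjusted p = 2.90e-02) and -0.13 and not called in WT, and Tnks2 was called lower at -0.55 in KO (4.37e-05) and -0.38 in WT (3.18e-04). Under that scaling the median of all genes was -0.39 in KO and -0.32 in WT. Parp6 and Tnks thus lay above the median gene in both genotypes, and Tnks2 below it. With the same upper quartile Tnks2 was called lower as well, at -0.31 in KO (adjusted p = 1.60e-03) and -0.19 in WT (1.85e-02). Parp6 was called higher in WT without WT_DMXAA replicate 3 or WT_DMSO replicate 3 (adjusted p = 1.91e-02 and 2.87e-02). Tnks2, close to the threshold in KO (adjusted p = 5.09e-02), was called lower there by edgeR (adjusted p = 4.08e-02) and DESeq2 (3.37e-02), and without KO_DMXAA replicate 1 or KO_DMSO replicate 3 (1.57e-02 and 4.97e-02). In all, 3 were higher, 2 lower and 2 not called in KO, and 3 were higher, 1 lower and 3 not called in WT, with a median of 0.17 in KO and 0.19 in WT.

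**Figure D2:**
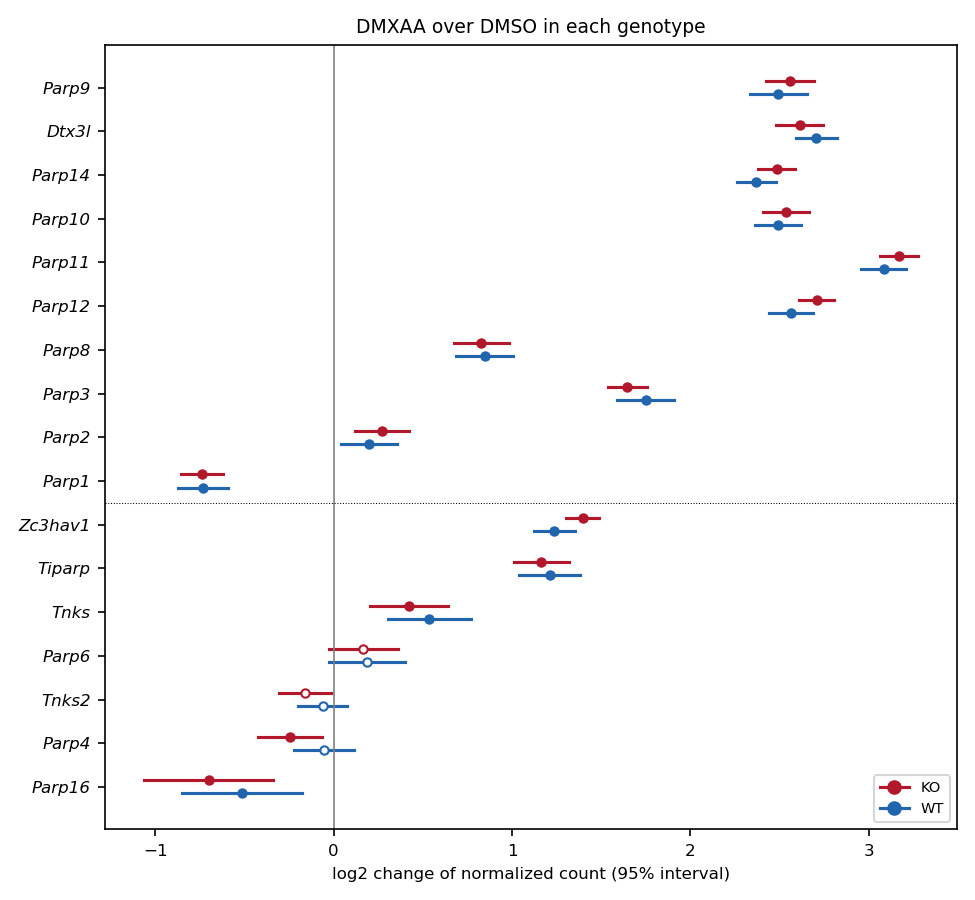
Log2 change under DMXAA relative to DMSO (x axis, with 95% intervals) of the 10 members, above the dotted line, and of the 7 other PARP genes, below it, in KO (red, upper point of each pair) and WT (blue). Filled points were called and open points were not; Parp11 lies at 3.17 in KO and 3.09 in WT, and Parp1 at -0.74 in both.

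Parp14, Dtx3l and Parp9 lie together on chromosome 16 (mm10, GENCODE vM21), Parp14 at 35832874 to 35871544, Dtx3l at 35926511 to 35939151 and Parp9 at 35938470 to 35972605. Parp9 is on the + strand and the other 2 on the - strand, so Parp9 and Dtx3l start head to head and overlap. The other 5 tested genes within 250 kb of them changed by -0.79 to 0.35 on the log2 scale. Kpna1, an importin gene, was at -0.31 in KO and -0.27 in WT, and Fam162a at -0.79 in KO and -0.55 in WT, all called lower. Hspbap1, next to Parp14, was not called in KO at -0.21 and was called higher in WT at 0.35. Wdr5b and Ccdc58 were called in neither genotype. The other members lie on 6 further chromosomes: Parp1 on 1, Parp2 on 14, Parp3 on 9, Parp8 on 13, Parp10 on 15, and Parp11 and Parp12 on 6.

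**Figure D3:**
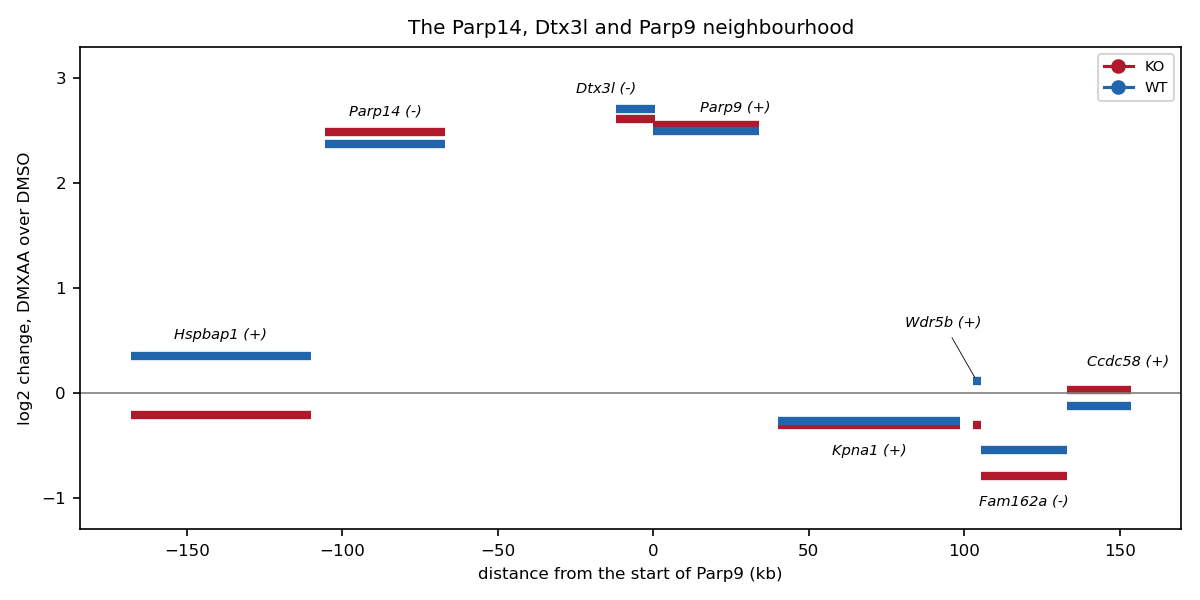
Log2 change under DMXAA relative to DMSO (y axis) of the tested genes around Parp14, Dtx3l and Parp9, drawn as bars over their extent in kb from the start of Parp9 (x axis), in KO (red) and WT (blue), with the strand in brackets. The 3 member genes lie at 2.37 to 2.71, and the 5 neighbours between -0.79 and 0.35.

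Between genotypes the inducible members were slightly lower in KO. Under DMXAA 5 of the 6 were called lower in KO, together with Parp3, so 6 of the 10 members, beside 10.8% of 12499 genes tested called lower and 10.7% called higher. Under DMSO 3 of the 6, Parp14, Parp12 and Parp10, were called lower, and no other member was, beside 9.58% of 12814 genes tested called lower and 7.04% called higher. The differences were small, at most 0.29 on the log2 scale. In the same comparison under DMXAA 9 of the 10 proliferation markers were called lower in KO and Pcna higher, and the neutrophil sum was 0.734 to 0.808 reads per M in KO against 2.52 to 2.89 in WT. Under DMSO all 10 proliferation markers were called lower, and the neutrophil sum was 0.733 to 1.15 in KO against 4.68 to 6.62 in WT. The 5 fibroblast or stroma markers summed to 0.586 to 5.13 reads per M in KO against 0.163 to 0.511 in WT under DMSO. Under DMXAA their sums overlapped, at 0.397 to 0.85 in KO and 0.13 to 0.452 in WT, where Lum was not listed. The macrophage sum was 9371 to 9461 in KO against 11447 to 11690 in WT under DMXAA. Under DMSO it was 16541 to 17332 against 20373 to 20836. Lyz2 had 2110 to 2150 reads per M in KO and 3911 to 4099 in WT under DMXAA. Not all macrophage markers were lower in KO: under DMSO Csf1r had 2490 to 2542 in KO and 2323 to 2345 in WT. The part of all these markers in the PARP differences was not tested. The median of the 6 was -0.17 under DMXAA and -0.24 under DMSO, and over all genes tested it was -0.00 under DMXAA and 0.01 under DMSO.

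Under DMXAA the largest difference was that of Dtx3l, with 8958, 9047 and 9505 normalized counts in KO, against 10654, 11367 and 11013 in WT. The groups did not overlap, and the log2 difference was -0.26 ± 0.04 (adjusted p = 1.55e-03). Parp10 had 11413, 12570.5 and 12556 in KO, against 13859, 14254 and 14049 in WT, and differed by -0.21 ± 0.05 (adjusted p = 8.46e-03). Parp3 had 5349, 5356 and 5171 in KO, against 6389, 5729.9 and 6250.1 in WT, and differed by -0.21 ± 0.05 (adjusted p = 1.41e-02). For all 3 genes every KO library was below every WT library, as was also the case for Parp14, Parp9, Parp12 and Parp11. The share of all genes without overlap between the genotypes was not counted. Parp14 differed by -0.17 ± 0.04 (adjusted p = 1.42e-02), Parp9 by -0.16 ± 0.04 (adjusted p = 1.66e-02) and Parp12 by -0.12 ± 0.04 (adjusted p = 3.84e-02). Parp11, Parp8, Parp1 and Parp2 were not called. Their 95% intervals were -0.17 to 0.00 for Parp11, -0.19 to 0.06 for Parp8, -0.15 to 0.09 for Parp1 and -0.05 to 0.27 for Parp2. Leaving out 1 library lost between 1 and 3 of these 6 calls: the call of Parp12 was lost without KO_DMXAA replicate 1 or 2 or any WT_DMXAA library (adjusted p = 7.44e-02 to 1.10e-01). That of Parp9 was lost without KO_DMXAA replicate 1 or 3 or WT_DMXAA replicate 2 (5.22e-02 to 7.37e-02), that of Parp3 without KO_DMXAA replicate 3 or WT_DMXAA replicate 1 (5.36e-02 and 5.70e-02), and that of Parp14 without WT_DMXAA replicate 1 (5.19e-02). The calls of Dtx3l and Parp10 held in each of these 6 fits. With libraries scaled to the same total Parp11 was called as well (adjusted p = 3.51e-02). Of the other 7 PARP genes, Parp6 was called higher in KO under DMXAA at 0.27 ± 0.08 (adjusted p = 3.41e-02), a call lost with libraries scaled to the same upper quartile or total (6.12e-02 and 6.90e-02) and without KO_DMXAA replicate 2 or 3 or WT_DMXAA replicate 3 (8.70e-02 to 1.15e-01).

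Under DMSO the largest difference was that of Parp14, with 5583, 5470.3 and 5386 normalized counts in KO, against 6924, 6841 and 6284 in WT. All KO libraries were below all WT libraries, and the log2 difference was -0.29 ± 0.06 (adjusted p = 5.98e-03). Parp12 had 2858, 2848 and 2906 in KO, against 3712, 3356 and 3283 in WT, and differed by -0.26 ± 0.06 (adjusted p = 1.72e-02). Parp10 differed by -0.25 ± 0.07 (adjusted p = 2.81e-02), again with no overlap. The other 3 inducible members were not called, Parp9 at -0.23 (95% interval -0.41 to -0.04), Dtx3l at -0.17 (-0.32 to -0.02) and Parp11 at -0.17 (-0.32 to -0.02). Nor were Parp1 (-0.16 to 0.11), Parp2 (-0.10 to 0.19), Parp3 (-0.26 to 0.06) and Parp8 (-0.22 to 0.14). The call of Parp14 held with each library left out in turn, that of Parp12 was lost without KO_DMSO replicate 1 or 2 (adjusted p = 6.37e-02 and 5.38e-02), and that of Parp10 without any of KO_DMSO replicates 1 and 2 and WT_DMSO replicates 1 and 3 (6.52e-02 to 1.01e-01). Parp9 passed without WT_DMSO replicate 3 (4.33e-02) and Parp11 without WT_DMSO replicate 1 (3.97e-02). The other 7 PARP genes were all not called under DMSO. Among them Parp6 had a mean of 7740 normalized counts in KO and 6303 in WT under DMSO, against 7117 and 5909 under DMXAA.

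No member's response to DMXAA was called different between the genotypes. The difference of the responses (KO minus WT, fitted over all 12 libraries) was called for 0 of the 10 members by limma, by edgeR and by DESeq2, beside 8.6% of the 12729 genes tested called by limma. At an unadjusted p below 0.05 it was 0 of the 10 members and 2794 of the 12729 genes. The largest was that of Parp12, 0.14 ± 0.07 (95% interval -0.00 to 0.29, adjusted p = 0.234), followed by Parp14 at 0.11 (-0.03 to 0.26), Parp3 at -0.10 (-0.29 to 0.08) and Dtx3l at -0.09 (-0.25 to 0.06). The interval for Parp11 was -0.08 to 0.24, for Parp9 -0.15 to 0.27, for Parp10 -0.13 to 0.22, for Parp1 -0.18 to 0.16, for Parp2 -0.14 to 0.28 and for Parp8 -0.24 to 0.20. These intervals allow differences of up to 0.29 on the log2 scale, set beside responses of 2.37 to 3.17 for the inducible members. The comparisons of genotypes and of treatments share libraries, so their values are not independent of each other.

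**Figure D4:**
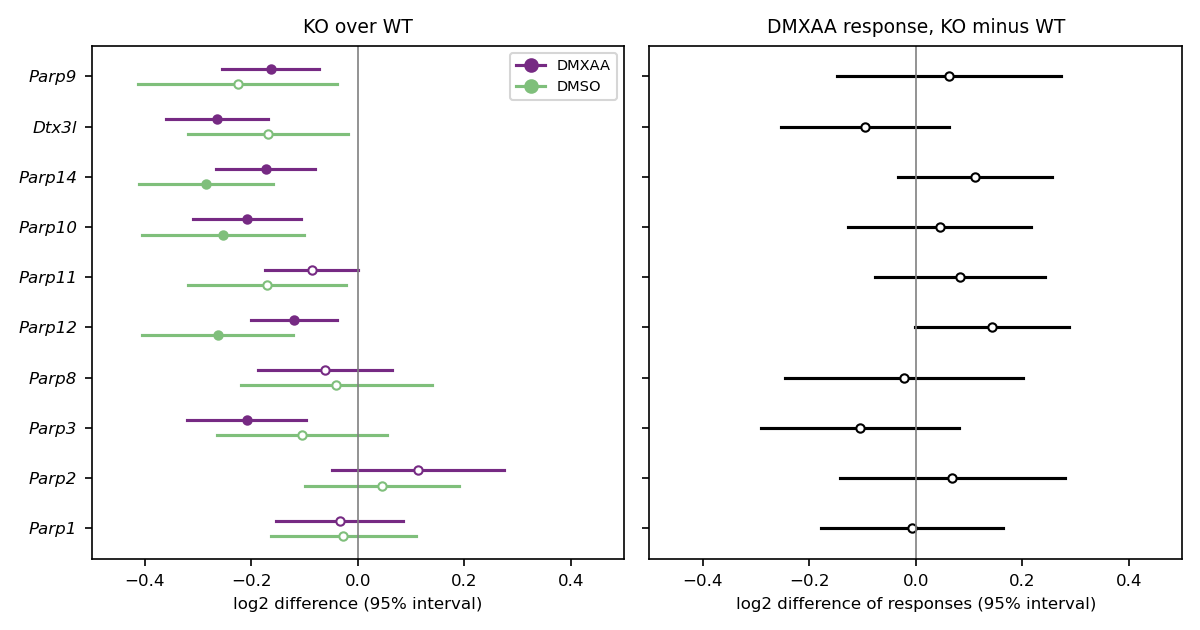
Left, log2 difference of KO over WT (x axis, with 95% intervals) of each member under DMXAA (purple, upper point) and DMSO (green). Right, the KO minus WT difference of the response to DMXAA. Filled points were called; under DMXAA 6 members were, all lower in KO, under DMSO 3 were, and on the right none was.

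Most genes that transmit interferon were also higher under DMXAA. Of 9 interferon receptor and ISGF3 signalling genes, 7 were called higher and 1 lower under DMXAA in each genotype, with a median of 1.43 in KO and 1.10 in WT. Stat2 rose by 3.96 in KO and 3.51 in WT on the log2 scale, and Irf7, the amplifier of type I interferon, by 6.93 in KO and 4.84 in WT. Under DMSO 4 of the 9 were called lower in KO than in WT and 1 higher, the lower ones including Irf7 at -1.98 ± 0.11 (adjusted p = 1.74e-06) and Stat2 at -0.55. Parp14, Parp12 and Parp10 were called lower in the same comparison, at -0.29, -0.26 and -0.25. Under DMXAA 2 of the 9 were called higher in KO than in WT and 1 lower, with a median of -0.01. In that comparison 5 of the 6 inducible members were called lower in KO. Of the 9 genes, 5 had a called difference of responses, 4 of them larger in KO, with Irf7 at 2.08 ± 0.13 (adjusted p = 4.61e-07), Stat2 at 0.45 ± 0.06 (adjusted p = 3.18e-04) and Irf1, the 1 that was smaller in KO, at -0.30 ± 0.05 (adjusted p = 2.81e-03).

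Genes that remove ADP-ribose were mixed. Of 7 tested, 1 was called higher and 1 lower in KO, and 2 higher and 2 lower in WT, with a median of -0.03 in KO and 0.08 in WT. Macrod1, a mitochondrial mono-ADP-ribose hydrolase gene, fell by 2.64 in KO and 2.17 in WT on the log2 scale. Oard1, which also removes ADP-ribose from proteins, was called higher at 0.31 ± 0.06 in KO and 0.25 ± 0.08 in WT, but was -0.08 in KO and -0.06 in WT and not called with libraries scaled to the same total. Under that scaling Oard1 lay above the median of all genes, which was -0.39 in KO and -0.32 in WT. Its WT call was also lost with the same upper quartile (adjusted p = 1.75e-01) and without WT_DMXAA replicate 2 or 3 (adjusted p = 6.41e-02 and 7.44e-02) or WT_DMSO replicate 1 (5.64e-02).

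Of 11 genes for partners of PARP1 and single-strand break repair, 5 were higher and 3 lower in KO, and 3 were higher and 3 lower in WT. The shares over all genes tested were 33.7% higher and 32.9% lower in KO, and 31.7% and 31.1% in WT. Polb, the gap-filling polymerase, rose by 0.96 in KO and 0.99 in WT, and Aptx, which trims blocked DNA ends, by 0.66 in KO and 0.60 in WT. Pcna, the replication clamp, was called higher in KO (95% interval 0.90 to 1.11 on the log2 scale) and not called in WT (-0.24 to 0.02), and the difference of its responses was 1.11 ± 0.08 (adjusted p = 1.67e-06). Under DMSO Pcna was -0.81 ± 0.06 (adjusted p = 1.02e-05) in KO over WT, Fen1, the flap nuclease, -0.40 ± 0.07 (adjusted p = 3.03e-03), and Hpf1, which directs PARP1 to serine, -0.39 ± 0.10 (adjusted p = 2.11e-02), while Parp1 and Parp2 were not called. The Hpf1 call was lost without KO_DMSO replicate 1 or WT_DMSO replicate 1 (adjusted p = 6.52e-02 and 6.38e-02).

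Genes that supply NAD+ or also consume it were mixed, with 6 of 12 tested higher and 3 lower in KO, and 5 of 13 higher and 3 lower in WT. Among all genes tested the shares were 33.7% higher and 32.9% lower in KO, and 31.7% and 31.1% in WT. Bst1, an ADP-ribosyl cyclase at the cell surface, rose by 2.20 in KO and 2.06 in WT, Nampt, the rate-limiting enzyme of NAD+ salvage, by 0.74 in KO and 0.91 in WT, and Sirt6, a nuclear NAD+-dependent deacylase, by 0.73 in KO and 0.70 in WT. Of the 3 tested Deltex relatives of Dtx3l, Dtx3 was called lower at -1.20 in KO and -1.23 in WT, Dtx4 was called lower at -0.90 in KO and -1.04 in WT, and Dtx2 was not called.

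Across the 12 libraries, which fall into 4 groups, log2 reads per M of the 6 inducible members varied together, with Pearson's r of 0.994 to 0.999 over their 15 pairs. Parp3 correlated with them at 0.986 to 0.993, Parp8 at 0.932 to 0.949, Parp2 at -0.642 to -0.621 and Parp1 at -0.992 to -0.980. Reads per M scale libraries to the same total, where Parp2 changed by -0.12 under DMXAA in each genotype. On the deposited scale Parp2 was called higher in both, and correlations on that scale were not computed. The correlations given describe mainly the step between DMXAA and DMSO, which the libraries share. The 5 other genes most like Parp14 by this measure, among 12729, were Gm5431 (r = 0.999), Herc6, Gm4951, Ddx58, the RNA sensor RIG-I, and Eif2ak2, the RNA-activated kinase PKR. Those most like Parp1 were Fam20c (r = 0.997), Galk1, Tceal9, Pygb and Cebpa, a myeloid transcription factor.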

How the data were processed

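Per the labels' protocols, RNA from an RNeasy kit went into a DNBSEQ strand-specific mRNA library kit. Per the submitters' processing notes, the tools were HISAT2 and featureCounts on mm10, of unstated versions and settings. The authors deposited normalized counts, a signal scaled separately in 4 tables of 6 libraries (DMSO, DMXAA, KO, WT). Their comparison tables, deposited as log2 fold changes with p-values, were read as a check and none is quoted. The standard error and test statistic in them, entered as score values, are as the authors deposited them. The series text gives the dose as 10 mg/ml, a unit that is unusually high for cultured cells and that the files could not settle.

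In each library 100% of the values were whole multiples of 1 read (tolerance 0.01), so reads were recovered. Depth was 79.5 to 98.1 M reads per library. Levels between genes are reads per kb of exon per M reads, with exon lengths from GENCODE vM21 (the annotation used for counting is unstated).

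The test was limma 3.58.1 (trend, two-sided) on log2(normalized count + 1) over genes with a mean of at least 10, within the table holding both groups, with Benjamini-Hochberg adjustment over all genes tested and calls below 0.05. Fold changes are on that scale. The difference of responses was fitted over all 12 libraries. The limma and edgeR tests were checked on simulated counts in which few genes changed, as many up as down. That check does not cover the scaling between libraries. Alternatives were other pseudocounts (0.5 and 5), no filter or a mean of at least 50, libraries scaled to the same upper quartile or total, edgeR 4.0.16 and DESeq2 1.42.0 on the recovered reads, a replicate block, and each library left out.

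The members and gene lists were chosen with earlier results of these data known. Named were all members, the other PARP genes, Mgmt, and at most 3 genes of each further list with the smallest p in a comparison. Promoter windows are RefSeq's (GRCm38.p6) and matched 7 of the 10 members. Single genes of some lists are not reported here.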

Additional observations from a re-analysis of the deposited data

Results flagged for a closer look

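No PARP member had a called difference of responses between the genotypes, beside 8.6% of the 12729 genes tested. It was called for 5 of the other genes named. Those were picked from their lists for a small p, so their count cannot be compared with that of the members. The values are the KO minus WT difference of the log2 response to DMXAA, tested with limma over 12 libraries. It was 2.08 for Irf7 and 0.45 for Stat2, both with a larger response in KO. For Irf1 it was -0.30, a smaller response in KO. Pcna, at 1.11, was called higher under DMXAA in KO and was not called in WT. Chd1l, a PARP1-activated chromatin remodeller, was at -0.59, with a log2 change of -0.76 in KO and -0.17 in WT, and its call was lost without WT_DMXAA replicate 2 (adjusted p = 5.29e-02). What lies behind these differences was not tested.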

How the results depend on the processing

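The 6 interferon-inducible members were called higher under DMXAA in both genotypes in every alternative run, and Parp1 lower. Libraries scaled to the same total gave log2 changes under DMXAA of -0.12 for Parp2, -0.22 for Parp6 and -0.081 for Oard1 in KO, and of -0.12 for Parp2, -0.13 for Parp6 and -0.063 for Oard1 in WT, each opposite in sign to the value reported. The median of all genes under that scaling, -0.39 in KO and -0.32 in WT, was below each of these values. That scaling also turned the difference of responses (KO minus WT) to -0.0015 for Parp2, -0.0075 for Parp9 and -0.025 for Parp10, none called. Leaving out each library in turn gave 1399 to 1899 genes called between KO and WT under DMSO, against 2129 with all libraries, the lowest without KO_DMSO replicate 1. It moved the difference of KO over WT under DMSO to between -0.073 and 0.025 for Parp1 and -0.096 and 0.028 for Parp8, and the difference of responses to between -0.059 and 0.038 for Parp1, -0.089 and 0.034 for Parp8, -0.0092 and 0.14 for Parp9, and -0.0030 and 0.091 for Parp10. The inducible members called lower in KO numbered 3 or 4 under DMXAA without 1 library, 6 with the same total, and 1 to 3 under DMSO without 1 library.

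The title numbers showed no clear pairing of the libraries: deviations of same-numbered libraries correlated at -0.098 to 0.122, and only in WT did each DMXAA library match its own number best. With 3 libraries per group these correlations cannot exclude a pairing. With title number as a replicate block the genes called between KO and WT under DMXAA numbered 2491, against 2686 without it, and the KO over WT difference of Parp12 under DMXAA was -0.12 and no longer called (adjusted p = 6.40e-02), leaving 4 of the 6 inducible members called there, and no other named call changed except that Tnks2 in KO, at -0.16, passed (adjusted p = 4.83e-02). A replicate block by the numerals in the library names gave 0.024 for Parp4 in WT, not called, lost the Parp2 call in WT (0.12, adjusted p = 3.09e-01), and added calls in KO for Parp6 (0.27, 6.58e-03) and Tnks2 (-0.24, 1.19e-02). Deviations of same-numeral libraries correlated at -0.070 to 0.024. The causes of these shifts were not tested. Depth did not limit the members, the lowest value being 1773 reads of Dtx3l in 1 library.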
